A study of Mus musculus with 3 samples.

Results

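Immediate early genes are transcribed within minutes of a stimulus without the need for new protein, and 10 of them were followed through the libraries of the incisor enamel organ. They were picked by name, namely Fos, Fosb, Jun, Junb, Egr1, Ier2, Atf3, Dusp1, Nr4a1 and Zfp36, and 10 of 10 were present among the 20937 genes with counts. All 10 also had enough counts to be among the 18702 genes tested.

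The study asked how loss of Stim1, the calcium sensor of the endoplasmic reticulum, alters enamel formation, and sequenced RNA from the whole enamel organ dissected from the incisor of mice aged 4 weeks. There were 3 libraries, 1 for each genotype. Stim1 cKO carried Stim1 fl/fl with the AmelX-iCre transgene, whose Cre is driven by amelogenin sequences and is therefore meant to act in ameloblasts, the enamel-forming cells. Stim1 HT carried Stim1 fl/wt with the same Cre, and Stim1 Ctrl carried Stim1 fl/fl without Cre. The enamel organ also holds cells in which this Cre is not meant to act, and bulk counts cannot tell fewer cells of a type from less RNA in each cell. Total counts were 21496136 in Stim1 cKO, compared with 20216507 for Stim1 HT and 28265960 for Stim1 Ctrl.

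Stim1 itself was at 72.8 CPM in Stim1 cKO, compared with 129 CPM for Stim1 HT and 186 CPM for Stim1 Ctrl. CPM are counts relative to library size after TMM scaling, a method that sets the bulk of genes equal between libraries. The 3 levels follow the genotypes, with the lowest in the library that has both floxed alleles and Cre. The log2 fold change of Stim1 cKO against both controls together was -1.11 (SE 0.35), and the quasi-likelihood test of edgeR gave an adjusted p of 0.106 (0.0225 with DESeq2, and 0.0225 to 0.148 over the alternatives tried). All differences below rest on the same 1 Stim1 cKO library, and the only spread open to the tests was the gap between both controls, whose genotypes are not the same. No difference therefore has a replicate check among these libraries. For Stim1 itself, the paper reports a significant reduction by RT-qPCR in incisor ameloblasts of Stim1 cKO mice.

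As background, immediate early genes are switched on by factors that are already present in the resting cell, among them serum response factor with its Elk partners and CREB, which MAP kinases and calcium-dependent kinases phosphorylate. Their products either regulate the later wave of genes or shut the response down, and most of their mRNAs are short-lived. The same genes are also induced when a tissue is cut or dissociated, so their level in a dissected sample can carry the handling as well as the state of the living tissue.

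Taken as a group, the 10 genes had 10718 counts in Stim1 cKO, compared with 6613 for Stim1 HT and 9341 for Stim1 Ctrl. These made up 0.0499% of all counts in Stim1 cKO (95% Wilson interval 0.0489% to 0.0508%), compared with 0.0327% for Stim1 HT (0.0319% to 0.0335%) and 0.0330% for Stim1 Ctrl (0.0324% to 0.0337%). Such intervals hold for counting error alone. After TMM scaling the sums were 443 CPM, 336 CPM and 363 CPM in the same order. The summed level was thus highest in Stim1 cKO, while the controls lay close to each other.

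In Stim1 cKO, 8 of the 10 genes were above both controls, a position held by 43.6% of all genes tested. The 8 were Fos, Fosb, Jun, Junb, Egr1, Dusp1, Nr4a1 and Zfp36. Ier2 and Atf3 were below both controls, as were 42.1% of all genes, but under upper-quartile scaling or library size alone Ier2 lay between the controls and Atf3 above them, and with genes averaging 50 counts or more both lay between the controls. In 7 of the 10 genes, Stim1 cKO lay outside the controls by more than the controls differed from each other, against 59% of all genes. The median log2 fold change of the 10 genes was 0.39, and that of all genes tested was -0.01. With library size alone these medians were 0.65 and 0.25, and the median of the 10 genes was 0.32 without Stim1 HT and 0.54 without Stim1 Ctrl.

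None of these differences passed the test. At an adjusted p under 0.01 and more than a 2-fold change, edgeR's quasi-likelihood test called 0 of the 10 genes, against 14 of all genes tested (0.0749%). DESeq2 also called 0 of the 10, against 10.6% of all genes. At an unadjusted p under 0.05 the count was 2 with edgeR, Dusp1 and Junb, and 1 with DESeq2, Dusp1, compared with 31.9% of all genes in edgeR and 25.9% in DESeq2. With the adjusted threshold relaxed to 0.05, edgeR still called 0 of the 10, against 9.68% of all genes. With 10 genes, a count of 0 beside these shares says nothing about them in particular.

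Between single libraries, 1 of the 10 genes, Fosb, was more than 2-fold apart between Stim1 cKO and Stim1 HT, as were 33% of all genes. The number was 0 of 10 between Stim1 cKO and Stim1 Ctrl (37.9% of all genes) and 0 of 10 between Stim1 HT and Stim1 Ctrl (13.5%). Differences among the 10 genes were therefore mostly below 2-fold. Counting error was small beside them in most cases. The exact 95% counting interval of the ratio of Stim1 cKO to Stim1 HT lay above 1 for 8 of the 10 genes (37.9% of all genes) and below 1 for Ier2 alone (38.5%). For Stim1 cKO to Stim1 Ctrl it lay above 1 for the same 8 genes (40.3%) and below 1 for 0 (39.5%). For Stim1 HT to Stim1 Ctrl it lay above 1 for Ier2 (26.7%) and below 1 for Fosb, Jun and Nr4a1 (29.1%). These intervals compare the libraries and not the genotypes.

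**Figure D1:**
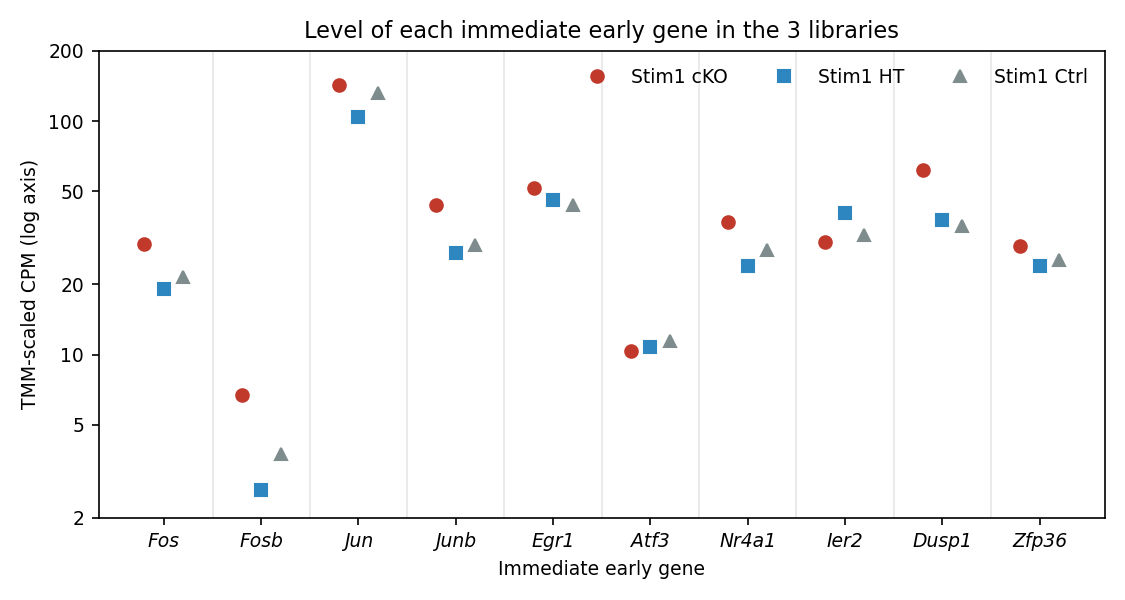
Level of each of the 10 genes in each of the 3 libraries, in TMM-scaled CPM on a log axis, with 1 point per library and no error bar because each genotype has 1 library. The Stim1 cKO point is the highest for 8 genes and the lowest for Ier2 and Atf3, whose position changes under upper-quartile scaling, library size alone or with genes averaging 50 counts or more.

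The promoters of the genes were examined for the short motifs through which such stimuli are known to act. RefSeq promoter windows on GRCm38.p6, of 250 bases before to 50 bases after the start site, were found for 8 of the 10 genes, that is, without Egr1 and Ier2. Both strands were searched for TGACGTCA (the cyclic AMP response element bound by CREB), the core TGACG of that element, the AP-1 site TGACTCA, GCGGGGGCG or GCGTGGGCG (the EGR site), TATAAA (the TATA box) and the CArG box of serum response factor. The full element contains the core on each strand. The 4 promoters shown belong to genes among the 5 with the largest log2 fold change, and each holds the core TGACG at least once. The core was also in the window of Atf3, whose log2 fold change was -0.10. A link between motif and fold change was not tested. They are given as the 250 bases before the start site, 5′ to 3′ on the strand of the gene, with motif matches in capitals, CGTCA being TGACG on the opposite strand.
Fos promoter: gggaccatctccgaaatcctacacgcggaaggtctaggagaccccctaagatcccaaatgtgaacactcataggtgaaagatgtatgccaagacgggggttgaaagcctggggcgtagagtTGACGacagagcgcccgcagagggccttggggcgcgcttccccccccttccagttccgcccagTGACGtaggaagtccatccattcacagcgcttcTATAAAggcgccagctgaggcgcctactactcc
Fosb promoter: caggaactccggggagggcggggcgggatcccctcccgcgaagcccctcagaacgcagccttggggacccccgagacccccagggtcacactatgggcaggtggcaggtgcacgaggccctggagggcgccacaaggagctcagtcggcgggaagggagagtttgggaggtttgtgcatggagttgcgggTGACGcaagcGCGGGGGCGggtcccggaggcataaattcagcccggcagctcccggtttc
Dusp1 promoter: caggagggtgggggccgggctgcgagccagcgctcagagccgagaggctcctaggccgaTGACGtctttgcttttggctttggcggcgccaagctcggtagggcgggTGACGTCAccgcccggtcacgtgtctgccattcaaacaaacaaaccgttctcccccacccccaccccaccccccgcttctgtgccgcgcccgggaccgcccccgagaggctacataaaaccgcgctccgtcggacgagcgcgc
Nr4a1 promoter: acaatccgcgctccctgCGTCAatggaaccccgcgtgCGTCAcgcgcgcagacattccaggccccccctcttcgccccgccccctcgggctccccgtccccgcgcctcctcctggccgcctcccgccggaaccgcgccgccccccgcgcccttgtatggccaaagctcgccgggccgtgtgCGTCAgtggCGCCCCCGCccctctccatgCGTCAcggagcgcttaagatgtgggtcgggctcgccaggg

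These sequences lie at chr12:85473640-85473889 on the plus strand for Fos, chr7:19310046-19310295 on the minus strand for Fosb, chr17:26508473-26508722 on the minus strand for Dusp1 and chr15:101266596-101266845 on the plus strand for Nr4a1. In Fos, TGACG begins at positions -129 and -66 and a TATA box at -33, counted from the start site. In Fosb, TGACG begins at -60 and is followed by an EGR site at -50. Dusp1 was the 1 gene of the 8 with the full element in its window, at -143, and it has a further TGACG at -191. Nr4a1 has 4 matches to TGACG, all on the opposite strand, at -233, -213, -69 and -40, with an EGR site at -60 between the last of them.

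Across the 8 windows, 6 held TGACG (Fos, Fosb, Junb, Atf3, Dusp1 and Nr4a1), compared with 20.8% of all 32817 promoter windows of the same length. The full element was in 1 of 8 against 1.79% of all windows, and the EGR site in 3 of 8 (Fosb, Nr4a1 and Zfp36) against 3.47%. A TATA box was found in Fos and Junb, that is 2 of 8, against 13.6%. The match in Junb begins at position 1 of a RefSeq start that lies 30 bases upstream of the nearest GENCODE M21 start of the gene, and the end of its window is not in a GENCODE transcript of Junb, so that positions in this window depend on the start used. A CArG box was found in Zfp36, 1 of 8 against 1.63%, and the AP-1 site in 0 of 8 against 5.20%. The window of Jun held none of these letters exactly, but it holds TGACATCA, which differs from the full element by 1 letter. In Atf3 the core begins at -7 on the opposite strand, and in Junb at -106 from the RefSeq start. For Atf3 and Zfp36, and by 1 base for Fosb, the nearest GENCODE start lies upstream of the RefSeq start. In Atf3 it coincides with the first base of the core match. Positions in these windows therefore depend on the start used as well. A match describes the letters in these windows and nothing else. Sequence outside the windows was not searched, so a window without a match does not show that the gene lacks the site.

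**Figure D2:**
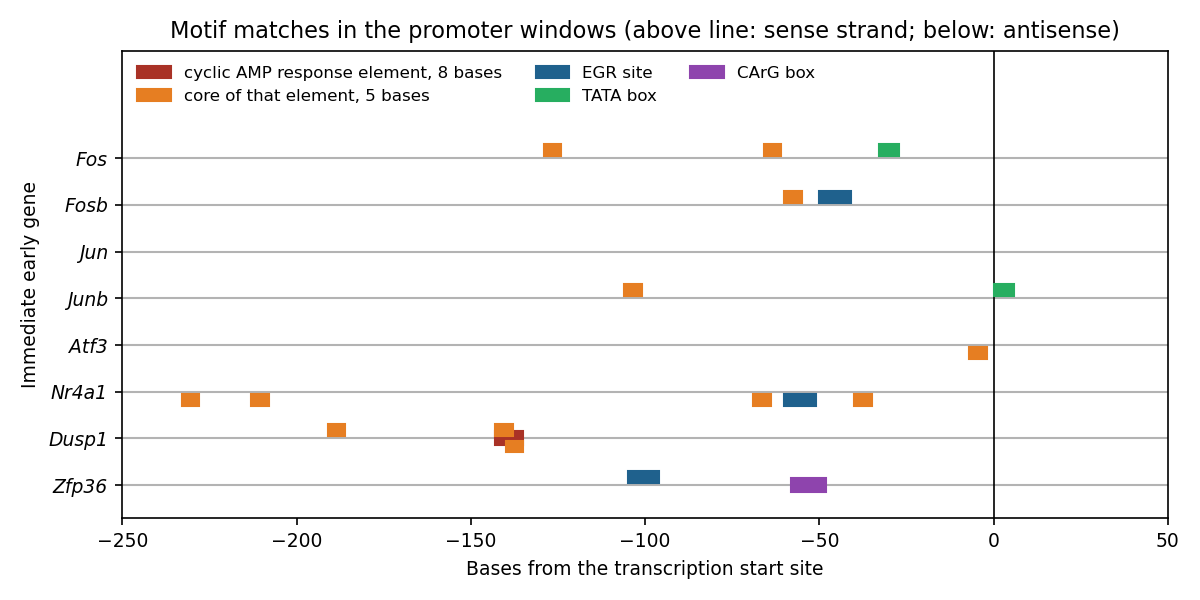
Motif matches in the promoter windows of 8 of the 10 genes, by distance in bases from the transcription start site, with matches on the strand of the gene above each line, those on the opposite strand below it, and motifs that read the same on both strands across it. TGACG, the core of the cyclic AMP response element, occurs in 6 of the 8 windows, and the full element in Dusp1 only.

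Fos and Fosb encode subunits of AP-1 that need a Jun partner to bind DNA. Fos (chr12:85473890-85477273 in GENCODE M21 on GRCm38) had 720 counts in Stim1 cKO, compared with 376 for Stim1 HT and 553 for Stim1 Ctrl. This equals 29.7 CPM, 19.1 CPM and 21.5 CPM, so that Stim1 cKO was highest and the controls were close together. Its fitted log2 fold change was 0.55 (SE 0.26), with an adjusted p of 0.217 in edgeR. Fosb (chr7:19302696-19310051) has a short splice form that is known to persist after repeated stimulation. It was the least abundant of the 10 genes in TPM in each library, and had 163 counts in Stim1 cKO, compared with 52 for Stim1 HT and 97 for Stim1 Ctrl, or 6.73 CPM, 2.64 CPM and 3.77 CPM. Its log2 fold change of 1.07 (SE 0.52) was the largest of the 10, but the error was also the largest, and the adjusted p was 0.222 in edgeR. The ratio of Stim1 cKO to Stim1 HT was 2.55 (95% counting interval 1.86 to 3.56) and to Stim1 Ctrl 1.79 (1.38 to 2.32).

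Because both genes were measured in the same library, their ratio does not depend on the scaling. There were 22.6 counts of Fosb per 100 counts of Fos in Stim1 cKO (exact 95% counting interval 19.0 to 26.9), compared with 13.8 for Stim1 HT (10.1 to 18.5) and 17.5 for Stim1 Ctrl (14.0 to 21.8). The interval of Stim1 cKO overlapped that of Stim1 Ctrl and lay above that of Stim1 HT.

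Jun and Junb encode the Jun-type subunits, of which Jun is the stronger activator and Junb often limits its action. Jun (chr4:95049034-95052222) had 3441 counts in Stim1 cKO, compared with 2049 for Stim1 HT and 3380 for Stim1 Ctrl. At 142 CPM, 104 CPM and 131 CPM, Stim1 cKO was near Stim1 Ctrl, and Stim1 HT was the library that stood apart. In the fit, the log2 fold change was 0.27 (SE 0.29) with an adjusted p of 0.545 in edgeR. Junb (chr8:84974484-84978718) had 1060 counts in Stim1 cKO, compared with 536 for Stim1 HT and 759 for Stim1 Ctrl. Its levels of 43.8 CPM, 27.2 CPM and 29.5 CPM put Stim1 cKO above a pair of similar controls. The log2 fold change was 0.63 (SE 0.23) with an adjusted p of 0.141 in edgeR. Within a library there were 30.8 counts of Junb per 100 counts of Jun in Stim1 cKO (28.7 to 33.0), compared with 26.2 for Stim1 HT (23.7 to 28.8) and 22.5 for Stim1 Ctrl (20.7 to 24.3). The interval of Stim1 cKO lay above that of Stim1 Ctrl and touched that of Stim1 HT. The exons of Jun overlap the antisense gene Junos over 232 bases and those of Junb overlap Prdx2 on the opposite strand over 173 bases. Both counts are therefore uncertain, because the sources used here do not say whether strand was taken into account.

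Levels of different genes can be compared roughly after division by exon length, as TPM. The length used is the union of all annotated exons of a gene, which can exceed the length of the mRNA. For Zfp36 this union is 3470 bases and covers the gene from start to end. Shares and ranks between genes are therefore approximate. Of the summed TPM of Fos, Fosb, Fosl1 and Fosl2, Fos made up 46.3% in Stim1 cKO, compared with 47.9% for Stim1 HT and 42.2% for Stim1 Ctrl. Fosl2 made up 47.1%, 48.9% and 54.1% in the same order, and Fosb 3.95%, 2.50% and 2.79%. Fos and Fosl2 thus made up most of the Fos-type mRNA in each library. Among the Jun-type genes, Jund was the most abundant in each library and accounted for 66.7% of their summed TPM in Stim1 cKO, compared with 79.1% for Stim1 HT and 75.3% for Stim1 Ctrl. Junb accounted for 9.98%, 5.56% and 5.86% in the same order. Jund, which is often expressed in resting cells, was at 212 CPM in Stim1 cKO, compared with 280 CPM for Stim1 HT and 275 CPM for Stim1 Ctrl. The larger share of Jun and Junb in Stim1 cKO went with a lower level of Jund as well as with their own. Exons of Jund overlap the antisense gene Gm11175 over 877 of 1668 bases, more than those of Jun or Junb overlap other genes, so the count of Jund and these shares are uncertain too. Fosl1, Fosl2 and Jund belong to a wider list of immediate early genes and were picked out after their values were seen.

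Egr1, Atf3 and Nr4a1 encode transcription factors outside AP-1 or able to pair with it. Egr1, a zinc finger factor that serum response factor and Elk proteins induce, had 1255 counts in Stim1 cKO, compared with 903 for Stim1 HT and 1129 for Stim1 Ctrl. Its levels were 51.8 CPM, 45.8 CPM and 43.9 CPM, a narrow range in which Stim1 cKO was highest. Its fitted log2 fold change was 0.21 (SE 0.23), with an adjusted p of 0.564 in edgeR. Atf3, a stress-induced member of the CREB family at chr1:191170296-191218039, had 250 counts in Stim1 cKO, compared with 212 for Stim1 HT and 294 for Stim1 Ctrl. At 10.3 CPM, 10.8 CPM and 11.4 CPM the 3 libraries could hardly be told apart. The counting interval of the ratio of Stim1 cKO included 1 against Stim1 HT (0.796 to 1.16) and against Stim1 Ctrl (0.761 to 1.07). A difference in Atf3 was not detectable at this depth, and the log2 fold change of -0.10 (SE 0.38) turned positive under upper-quartile scaling, library size alone and a filter of a mean of at least 50 counts.

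Nr4a1 (chr15:101254269-101274795) encodes an orphan nuclear receptor that is induced by calcium entry in many cell types. It had 898 counts in Stim1 cKO, compared with 473 for Stim1 HT and 725 for Stim1 Ctrl, or 37.1 CPM, 24.0 CPM and 28.2 CPM. The Stim1 cKO library was the highest, and Stim1 HT was lower than Stim1 Ctrl by a ratio of 0.852 (0.757 to 0.958). In the fit, the log2 fold change was 0.51 (SE 0.25) with an adjusted p of 0.225 in edgeR. Its relative Nr4a2, one of the further genes selected by the rule for named genes, was at 34.0 CPM in Stim1 cKO, compared with 10.8 CPM for Stim1 HT and 15.9 CPM for Stim1 Ctrl. Nr4a2 therefore differed more, with a log2 fold change of 1.35 (SE 0.34), but did not pass the test, with an adjusted p of 0.0692 in edgeR (0.0403 to 0.0693 over the alternatives). There were 91.5 counts of Nr4a2 per 100 counts of Nr4a1 in Stim1 cKO (83.2 to 101), compared with 44.8 for Stim1 HT (37.9 to 52.8) and 56.6 for Stim1 Ctrl (49.98 to 63.9). The interval of Stim1 cKO lay above those of both controls.

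Ier2 encodes a small nuclear protein of the immediate early response. It lies at chr8:84661331-84662852 and had 736 counts in Stim1 cKO, compared with 799 for Stim1 HT and 834 for Stim1 Ctrl. Its levels were 30.4 CPM in Stim1 cKO, compared with 40.6 CPM for Stim1 HT and 32.4 CPM for Stim1 Ctrl, so that Stim1 HT was highest and Stim1 cKO was near Stim1 Ctrl. The ratio of Stim1 cKO to Stim1 HT was 0.750 (0.677 to 0.830) and to Stim1 Ctrl 0.938 (0.848 to 1.04). Ier2 thus went the other way from Fos and Junb in the comparison with Stim1 HT. The log2 fold change was -0.26 (SE 0.27) with an adjusted p of 0.526 in edgeR, and with library size alone it was -0.01.

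Dusp1 and Zfp36 encode proteins that end the response. Dusp1 (chr17:26505590-26562128) encodes a nuclear phosphatase of MAP kinases and had 1488 counts in Stim1 cKO, compared with 743 for Stim1 HT and 915 for Stim1 Ctrl. At 61.5 CPM in Stim1 cKO, compared with 37.7 CPM for Stim1 HT and 35.6 CPM for Stim1 Ctrl, the controls were almost equal and Stim1 cKO stood above them. Stim1 cKO exceeded Stim1 HT by a ratio of 1.63 (1.49 to 1.78) and Stim1 Ctrl by 1.73 (1.59 to 1.88), while that of Stim1 HT to Stim1 Ctrl was 1.06 (0.962 to 1.17). Its log2 fold change was 0.75 (SE 0.23). The adjusted p of 0.0997 in edgeR was the lowest of the 10 genes and did not pass, and over the alternatives tried it ranged from 0.0607 to 0.161, the latter with DESeq2. Set against Egr1 in the same library, there were 119 counts of Dusp1 per 100 counts of Egr1 in Stim1 cKO (109.9 to 128), compared with 82.3 for Stim1 HT (74.6 to 90.8) and 81.0 for Stim1 Ctrl (74.2 to 88.5). Dusp1 was thus higher relative to Egr1 in Stim1 cKO, whatever the scaling between libraries. The pairs used for such ratios were not among the planned comparisons, and the intervals hold for counting error alone. How often other pairs of genes differ this much was not examined.

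Zfp36 (chr7:28376784-28380253) encodes tristetraprolin, which binds AU-rich elements and promotes the decay of short-lived mRNAs. It had 707 counts in Stim1 cKO, compared with 470 for Stim1 HT and 655 for Stim1 Ctrl, or 29.2 CPM, 23.9 CPM and 25.5 CPM. Stim1 cKO was slightly above both controls, with a log2 fold change of 0.24 (SE 0.25) and an adjusted p of 0.529 in edgeR. The exons of Zfp36 overlap the antisense gene Gm44710 over 125 bases and those of Dusp1 overlap Ergic1 over 11 bases, with the same uncertainty as for Jun and Junb.

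**Figure D3:**
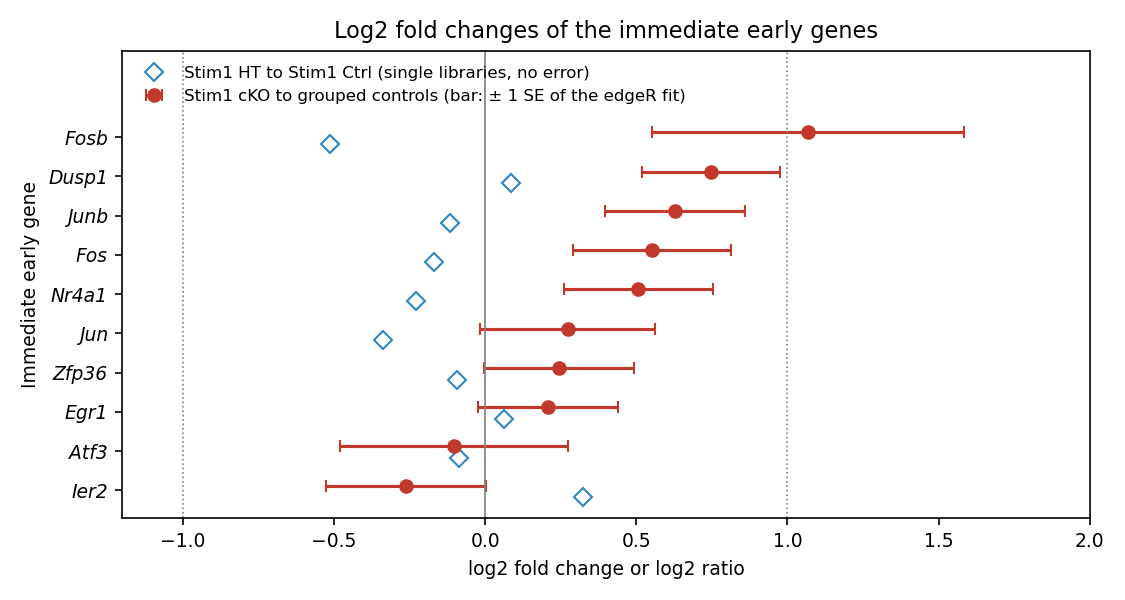
Log2 fold change of Stim1 cKO against both controls together for each of the 10 genes (red points, with bars of 1 SE from the edgeR fit) and the log2 ratio between the controls, Stim1 HT over Stim1 Ctrl (open diamonds, single libraries). The fold changes run from -0.26 for Ier2 to 1.07 for Fosb, and those of Atf3 and Ier2 are the 2 below 0 (that of Atf3 is above 0 under upper-quartile scaling, library size alone and with genes averaging 50 counts or more).

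In TPM, Jun was the most abundant of the 10 genes in each library, at 149 TPM in Stim1 cKO, compared with 91.3 TPM for Stim1 HT and 123 TPM for Stim1 Ctrl. Ier2 came next with 66.9 TPM, 74.6 TPM and 63.6 TPM, followed by Junb with 63.8 TPM, 33.1 TPM and 38.3 TPM and Dusp1 with 62.2 TPM, 31.9 TPM and 32.1 TPM. Ier2, Junb and Dusp1 were thus nearly level in Stim1 cKO, whereas in both controls Ier2 was clearly the highest of them. In Stim1 cKO, Fos and Egr1 followed at 42.4 TPM and 38.7 TPM, while in both controls Egr1 was above Fos. Atf3 and Fosb came last in each library, with Atf3 between 14.0 TPM and 16.1 TPM and Fosb between 1.18 TPM and 3.61 TPM. The order of neighbours such as Nr4a1 and Zfp36 differed between libraries, and with 1 library per genotype the spread of these orders is unknown. Any order of genes by TPM also depends on the exon lengths used.

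**Figure D4:**
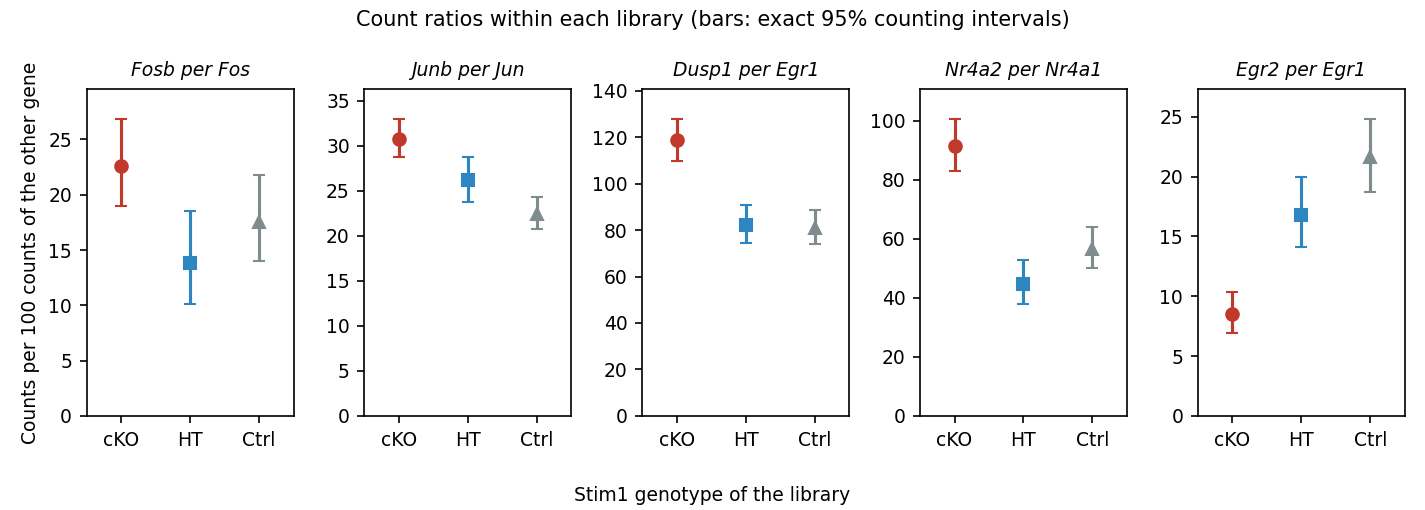
Counts of 1 gene per 100 counts of another in the same library, for 5 pairs, with exact 95% intervals for counting error. The ratio of Dusp1 to Egr1 and that of Nr4a2 to Nr4a1 are above both controls in Stim1 cKO, that of Egr2 to Egr1 is lower (8.53 against 16.8 for Stim1 HT and 21.6 for Stim1 Ctrl), and the Fosb to Fos intervals of Stim1 cKO and Stim1 Ctrl overlap.

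Other immediate early genes were examined as lists of AP-1 and related factors, other transcription factors, feedback regulators and secreted or effector products, 64 genes in all, of which 63 were tested and Egr4 was not listed. Stim1 cKO was above both controls for 26 of the 63 (41.3%) and below both for 22 (34.9%), against 43.6% and 42.1% of all genes, and the median log2 fold change was -0.05. The further genes thus lay on both sides of the controls in similar numbers. edgeR called 0 of the 63 at an adjusted p under 0.01, with 16 at an unadjusted p under 0.05 (25.4%, against 31.9% of all genes). DESeq2 called 4, Sgk1, Nfkbia, Cxcl1 and F3, all higher, which is 6.35% of the 63 against 10.6% of all genes. By list this share ran from 0% to 13.3%, the latter for the secreted or effector products. The difference from all genes was not tested. At an adjusted p under 0.05, edgeR called 5 (7.94%, against 9.68% of all genes), the same 4 and Npas4, which falls outside the rule for named genes and was chosen after its values were seen.

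By list, Stim1 cKO was above both controls for 2 of 6 AP-1 and related factors, 6 of 15 transcription factors, 9 of 27 feedback regulators and 9 of 15 secreted or effector products. It was below both for 3, 6, 10 and 3 of them in the same order. Of all genes, 43.6% were above both controls and 42.1% below both. The median log2 fold changes were -0.26, -0.15, -0.06 and 0.44, so that the secreted and effector products stood highest. Among these, F3, the cell surface initiator of blood clotting, was at 109 CPM in Stim1 cKO, compared with 35.2 CPM for Stim1 HT and 30.3 CPM for Stim1 Ctrl. F3 had a log2 fold change of 1.73 (SE 0.24) with an adjusted p of 0.0246 in edgeR (3.07e-05 to 0.0296 over the alternatives). Cxcl1, a chemokine for neutrophils, had 228 counts in Stim1 cKO, compared with 11 for Stim1 HT and 5 for Stim1 Ctrl, or 9.42 CPM, 0.558 CPM and 0.194 CPM, with an adjusted p of 0.0295 in edgeR (0.000131 to 0.0380 over the alternatives). Its controls were close to the limit of 3 counts. With no filter F3 and Cxcl1 passed the threshold of 0.01 in edgeR too, at adjusted p of 0.00624 and 0.00786. Arc, which encodes a protein of stimulated neurons, was at 8.30 CPM in Stim1 cKO, compared with 2.39 CPM for Stim1 HT and 1.83 CPM for Stim1 Ctrl, with an adjusted p of 0.0700 in edgeR. F3, Cxcl1 and Arc thus each exceeded both controls by more than 2-fold.

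Among the feedback regulators, Nfkbia, the main inhibitor of NF-kappaB, was at 167 CPM in Stim1 cKO, compared with 68.8 CPM for Stim1 HT and 56.1 CPM for Stim1 Ctrl. Its log2 fold change was 1.42 (SE 0.27), with an adjusted p of 0.0403 in edgeR (0.000505 to 0.0431 over the alternatives). Nfkbiz, a nuclear protein of the same family, was at 32.6 CPM, 13.3 CPM and 8.59 CPM in the same order, with an adjusted p of 0.0596 in edgeR. Nfkbia and Nfkbiz thus each exceeded both controls by more than 2-fold. Sgk1, a kinase induced by serum and glucocorticoids, was at 132 CPM in Stim1 cKO, compared with 57.3 CPM for Stim1 HT and 57.1 CPM for Stim1 Ctrl, with an adjusted p of 0.0448 in edgeR (0.00334 to 0.0460 over the alternatives). Spry4, an inhibitor of receptor tyrosine kinase signalling, went the other way with 9.29 CPM, 22.5 CPM and 22.3 CPM and an adjusted p of 0.0675 in edgeR. Dusp2, a phosphatase related to Dusp1, differed mainly between the controls, at 10.4 CPM for Stim1 HT and 4.00 CPM for Stim1 Ctrl, with 5.33 CPM in Stim1 cKO. The log2 fold change of -0.43 for Dusp2 turned to 0.41 without Stim1 HT and was -0.96 without Stim1 Ctrl, so that its direction rested on that library.

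The factors and kinases upstream of these genes, together with heat shock genes known to be induced in dissociated tissue, made up 42 genes, all tested. Stim1 cKO was above both controls for 11 and below both for 21 of them (26.2% and 50%, against 43.6% and 42.1% of all genes), with a median log2 fold change of -0.18. edgeR called 0 of the 42 at an adjusted p under 0.01, with 10 at an unadjusted p under 0.05 (23.8%, against 31.9% of all genes). DESeq2 called 4 (9.52%, against 10.6% of all genes), of which Crebbp, Camk4 and Hsp90aa1 were higher and Hspd1 lower. In the arm of serum response factor 0 of 6 genes were above both controls and 4 below, with a median log2 fold change of -0.44. In the CREB and calcium kinase arm these counts were 6 and 3 of 14 with a median of 0.11, and in the MAP kinase arm 2 and 8 of 11 with a median of -0.27. The share above both controls in the CREB arm, 42.9%, was near that of all genes.

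In the CREB arm, Crebbp, a coactivator and histone acetyltransferase that binds phosphorylated CREB, was at 228 CPM in Stim1 cKO, compared with 66.5 CPM for Stim1 HT and 77.7 CPM for Stim1 Ctrl. Its log2 fold change was 1.66 (SE 0.26), with an adjusted p of 0.0304 in edgeR (1.73e-05 to 0.0319 over the alternatives). Camk4, a calcium-dependent kinase that phosphorylates CREB, was at 47.0 CPM in Stim1 cKO, compared with 11.9 CPM for Stim1 HT and 13.8 CPM for Stim1 Ctrl. Camk4 had a log2 fold change of 1.87 (SE 0.26) with an adjusted p of 0.0241 in edgeR (0.000314 to 0.0262 over the alternatives). Crebbp and Camk4 each exceeded both controls by more than 2-fold and passed the threshold of 0.01 with DESeq2 but not with edgeR after filtering, while with no filter Camk4 passed in edgeR too, at an adjusted p of 0.00668. The exons of Camk4 overlap those of the antisense gene 2310026I22Rik over 72 bases.

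Heat shock genes encode chaperones and are among those known to be induced when tissue is handled. Of the 11 on the list, 3 were above both controls in Stim1 cKO and 6 below, against 43.6% and 42.1% of all genes. Their median log2 fold change was -0.18. Their summed level was 2070 CPM in Stim1 cKO, compared with 2442 CPM for Stim1 HT and 2454 CPM for Stim1 Ctrl, and Hspa8 had the highest mean TPM over the 3 libraries. Hspd1, a mitochondrial chaperonin, was at 138 CPM in Stim1 cKO, compared with 283 CPM for Stim1 HT and 331 CPM for Stim1 Ctrl, with a log2 fold change of -1.15 (SE 0.32) and an adjusted p of 0.0826 in edgeR. The exons of Hspd1 overlap those of Hspe1 on the opposite strand over 112 bases. Hsp90aa1, a cytosolic chaperone named after its values were seen, was at 765 CPM in Stim1 cKO, compared with 399 CPM for Stim1 HT and 332 CPM for Stim1 Ctrl. The order of the sums depended on Hspa8 and Hsp90aa1, which differed in opposite directions. Hspa8 was at 681 CPM in Stim1 cKO, compared with 1158 CPM for Stim1 HT and 1165 CPM for Stim1 Ctrl. Without Hspa8 the sum was highest in Stim1 cKO, at 1389.7 CPM, compared with 1283 CPM for Stim1 HT and 1289 CPM for Stim1 Ctrl. Without Hspa8 and Hsp90aa1 it was lowest there, at 624 CPM, compared with 884 CPM for Stim1 HT and 957 CPM for Stim1 Ctrl. Both sums were taken after the values were seen. The part of handling in the result was not tested.

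**Figure D5:**
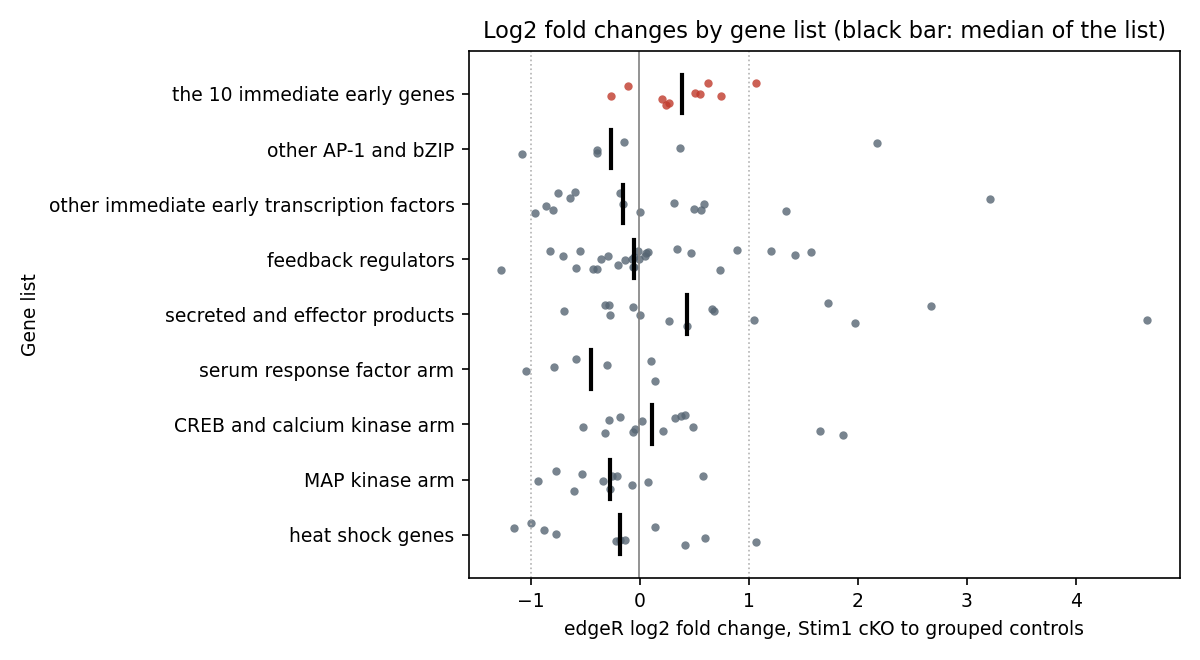
Log2 fold change of Stim1 cKO against both controls together for each gene of each list, with 1 point per gene, a black bar at the median of the list, a grey line at the median of all genes tested and dotted lines at 2-fold. The median of the 10 immediate early genes is 0.39 and that of the serum response factor arm -0.44, and Cxcl1 is the point farthest to the right.

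Markers of several cell types also differed between the libraries. Among the 7 ameloblast markers, Stim1 cKO was below both controls for 4 and above both for 2, against 42.1% and 43.6% of all genes. Their summed level was 4457 CPM in Stim1 cKO, compared with 31544 CPM for Stim1 HT and 23273 CPM for Stim1 Ctrl. Amelx, which encodes the main enamel matrix protein, had the highest mean TPM of them over the 3 libraries and was present in each, and no ameloblast marker was absent. The 5 markers of dental epithelium were all above both controls, with 2809 CPM in Stim1 cKO, compared with 1728 CPM for Stim1 HT and 1614 CPM for Stim1 Ctrl and with Krt5 the highest in mean TPM. In Stim1 cKO the epithelial sum was thus higher and the ameloblast sum lower than in the controls. The ameloblast sum was carried by Amelx, Ambn and Enam. The other 4 markers were summed after the values were seen. Their sum was highest in Stim1 cKO, at 957 CPM, compared with 494 CPM for Stim1 HT and 259 CPM for Stim1 Ctrl. Most of that was Odam, at 694 CPM in Stim1 cKO, compared with 196 CPM for Stim1 HT and 75.1 CPM for Stim1 Ctrl. Amtn was also above both controls (150 CPM, 145 CPM and 72.4 CPM in the same order). Klk4 lay between them (29.0 CPM, 30.2 CPM and 12.7 CPM), and Mmp20 was below both (84.4 CPM, 123 CPM and 98.4 CPM).

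Markers of neurons were above both controls for 5 of 5, with a summed level of 779 CPM in Stim1 cKO, compared with 156 CPM for Stim1 HT and 77.8 CPM for Stim1 Ctrl and with Tubb3 the highest in mean TPM. Those of retina and lens were above both for 5 of 5 tested, with 1051 CPM, 5.84 CPM and 4.59 CPM in the same order and with Cryaa the highest in mean TPM, while Cryba1 was not listed. Those of plasma cells were above both for 4 of 4, with 168 CPM, 6.24 CPM and 1.71 CPM and with Igkc the highest in mean TPM. Of all genes, 43.6% were above both controls. edgeR called 4 of the 5 genes of retina and lens, 1 of the 4 of plasma cells and 0 of the 5 of neurons, against 0.0749% of all genes. Of the 5 genes of neurons, 5 had an unadjusted p under 0.05 in edgeR (31.9% of all genes) and DESeq2 called 5 (10.6% of all genes). All 3 lists were thus highest in Stim1 cKO, the library in which 8 of the 10 immediate early genes were highest. Their part in the result was not tested.

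In the other lists, markers below both controls were counted, a position held by 42.1% of all genes. Stim1 cKO was below both controls for 5 of 6 skeletal muscle markers (3456 CPM, 16820 CPM and 19309 CPM in Stim1 cKO, Stim1 HT and Stim1 Ctrl), 5 of 5 endothelial markers (180.4 CPM, 425 CPM and 450.4 CPM) and 5 of 5 macrophage markers (103 CPM, 223 CPM and 235 CPM). It was below both for 6 of 6 connective tissue markers (35284 CPM, 49163 CPM and 76100.0 CPM), 3 of 5 of bone and odontoblasts (2325 CPM, 2501 CPM and 2676 CPM) and 1 of 4 of smooth muscle and pericytes (610.5 CPM, 690.1 CPM and 922 CPM). The genes highest in mean TPM were Acta1, Cdh5, C1qb, Col1a1, Ibsp and Acta2 in the order of these lists. Markers of skeletal muscle, endothelium, macrophages and connective tissue were thus mostly lowest in Stim1 cKO, while those of smooth muscle and pericytes mostly lay between the controls. Of the erythroid markers 4 of 5 were below both (1041 CPM, 2231 CPM and 1480.1 CPM), with Hbb-bs the highest in mean TPM, and of the neutrophil markers 4 of 5. In the neutrophil list the sum was nevertheless higher in Stim1 cKO (1490 CPM, 550.1 CPM and 258 CPM), with Ltf alone at 1441 CPM, 358 CPM and 112 CPM. No marker was at 0, since each gene in the table has at least 1 count in every library. The part of these cell types in the levels of the 10 genes was not tested.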

How the data were processed

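RNA sequencing counts from 3 incisor enamel organ libraries were used. The authors trimmed paired-end reads, ran STAR against the mouse genome and deposited the counts for each symbol without normalisation, and every column of values was assigned to a library. FastQC, STAR and DESeq2 are named in the submitters' processing notes. Aligner version, build, annotation, counting tool and strand setting are not given in the sources used here. As library kit, the labels give SMARTER and the paper gives NEBNext Ultra II Directional with poly-A selection. Each of the 20937 genes listed has at least 1 count in each library, 25 symbols are in the form of a date, and 2 are listed more than once.

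Counts were scaled by TMM, filtered with filterByExpr and tested with edgeR 4.0.16 in R 4.3.3, by the quasi-likelihood test of Stim1 cKO against Stim1 HT and Stim1 Ctrl as 1 group, adjusted by Benjamini-Hochberg over 18702 genes. The TMM factors were 1.13, 0.975 and 0.911 for Stim1 cKO, Stim1 HT and Stim1 Ctrl, and the common dispersion was 0.106. Calls needed an adjusted p under 0.01 with a fold change over 2. No paired analysis was possible because the libraries share a replicate number and nothing else that links them. A standard error is the log2 fold change divided by the root of the F statistic. The alternatives were DESeq2 1.42.0, RLE, upper-quartile and library size scaling, scaling without mitochondrially encoded genes and Amelx, Ambn and Enam, no filter, genes averaging 50 counts or more, a 1.5-fold minimum, an adjusted p under 0.05, and leaving out each control. The position of the 10 genes relative to both controls under each scaling and filter, the heat shock sum without Hspa8 and Hsp90aa1, the ameloblast sum without Amelx, Ambn and Enam, and the alternatives for the other named genes, were added after seeing the data. The fits were tested on simulated counts. TPM used the length of the union of all exons of each gene in GENCODE M21, for 20682 genes. That annotation may differ from that of the counts. Ratios of counts have exact 95% binomial intervals, and 3 counts were taken as the limit of detection (0.124 CPM for Stim1 cKO, 0.152 CPM for Stim1 HT, 0.117 CPM for Stim1 Ctrl), both for counting error only. Identical promoter windows were counted once. Python 3.11.15 with scipy 1.17.1 was used.

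The members, lists and tests were chosen with earlier results of these data known. Of the further and upstream genes, the text names those averaging 50 counts or more that were over 2-fold higher or lower in Stim1 cKO than in both controls, or over 2-fold apart between the controls, up to 12 per list. Egr2 and any other gene named outside this rule were chosen after their values were seen.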

Additional observations from a re-analysis of the deposited data

How the results depend on the processing

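The median log2 fold change of the 10 genes was 0.39 and moved to 0.65 with library size alone, a scaling that moved the median of all genes from -0.01 to 0.25, while upper-quartile scaling moved the latter to 0.12. The median was between 0.32 and 0.54 without Stim1 HT or without Stim1 Ctrl. The count of 0 of the 10 genes called held under each scaling and filter, with DESeq2 and at an adjusted p under 0.05. A call also needs a fold change over 2, which Fosb alone exceeded in the main fit. For the other genes this count therefore rests largely on that minimum. Of all genes, 14 were called, against 50 with RLE scaling, 138 with upper-quartile scaling, 6 with library size alone, 907 with no filter, 6 with genes averaging 50 counts or more, 1987 with DESeq2 and 1811 at an adjusted p under 0.05. For the further genes the count of 0 became 2 with no filter, 4 with DESeq2 and 5 at an adjusted p under 0.05, and for the upstream and heat shock genes 1, 4 and 2. Between Stim1 cKO and Stim1 HT, 5 of the 10 genes (54.4% of all genes) were over 1.5-fold apart rather than 1 over 2-fold. Between Stim1 cKO and Stim1 Ctrl, the number over 2-fold apart was 1 with upper-quartile scaling (37.5% of all genes) and 2 with library size alone (38.6%) rather than 0, and 2 were over 1.5-fold apart (57.2%). In a comparison chosen after seeing the data, 0 of the 10 genes rather than 2 were below both controls with these scalings and with genes averaging 50 counts or more, and with these scalings 9 rather than 8 were above both. The log2 fold change of Atf3 turned from -0.10 to 0.0237 with upper-quartile scaling, 0.16 with library size alone and 0.0047 with genes averaging 50 counts or more, and that of Dusp2 from -0.43 to 0.41 without Stim1 HT (-0.96 without Stim1 Ctrl). Of 70 tested values for the 10 genes, 67 kept their direction and side of the threshold, and 20 of 20 untested values without 1 control kept their direction. The cause of these shifts was not tested. Depth limits Atf3, whose counting intervals include equal levels, and the spread between mice is not known.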

Other observations

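Egr2 and Egr3, zinc finger factors like Egr1, had their lowest level in Stim1 cKO, but neither passed the test. Egr2 had 4.42 CPM there, compared with 7.72 CPM for Stim1 HT and 9.48 CPM for Stim1 Ctrl, and had an adjusted p of 0.228 in edgeR (0.343 for Egr3). Srf, which encodes serum response factor, had 43.5 CPM in Stim1 cKO, compared with 83.0 CPM for Stim1 HT and 96.2 CPM for Stim1 Ctrl, and the adjusted p in edgeR was 0.0731. Npas4, a factor largely restricted to neurons, had 64 counts in Stim1 cKO, compared with 4 for Stim1 HT and 9 for Stim1 Ctrl, and the adjusted p in edgeR was 0.0471. Egr2, Egr3, Srf and Npas4 were singled out after their values were seen, and no difference here has a replicate check.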
